A study of Mus musculus with 6 samples.

Results

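The transcripts described here encode periostin and 9 other proteins of the pericellular matrix: Postn, Tgfbi, Sparc, Tnc, Tnn, Thbs1, Thbs2, Thbs3, Fn1 and Vcan. They were taken by gene symbol from a table of 28802 genes, and each symbol matched 1 row. The study sequenced poly(A) RNA of 6 mouse libraries whose tissue label is cranial bone. Of these, 3 are controls without metformin (0 µM) and 3 carry the label of a composite scaffold, α-hemihydrate calcium sulfate with nano-hydroxyapatite, loaded with 500 µM metformin. Metformin is a biguanide drug for type 2 diabetes, and the scaffold is a mineral bone filler. The labels describe a skull defect of 5 mm in diameter as the model, but do not say whether the RNA came from tissue or from cultured cells. The leukocyte gene Ptprc had a mean of 0.0068 FPKM. Of the other macrophage markers, Lyz2 (8.69 FPKM) and Cd68 (0.581 FPKM) had the highest means. Csf1r (0.156 FPKM), C1qa (0.125 FPKM), Adgre1 (0.038 FPKM) and Mrc1 (0.031 FPKM) were lower. Whether the RNA came from tissue or from culture was not tested. Strain, age and sex are not in the labels, nor is whether control received the composite without drug; if it did not, metformin and scaffold cannot be told apart. Nothing says that replicates came from different animals or cultures, so p-values measure only the spread between these libraries, which may be technical.

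Matricellular proteins are secreted into the matrix but act mainly on how cells adhere, migrate and respond to growth factors. Periostin and its relative Tgfbi share fasciclin domains and bind integrins and collagen, and periostin is a marker of the periosteum, the layer of bone-forming progenitors around a bone. Sparc (osteonectin) binds collagen and mineral. The tenascins Tnc and Tnn and the thrombospondins Thbs1, Thbs2 and Thbs3 are multimeric glycoproteins that modulate adhesion, and Thbs1 can activate latent TGF-beta. Fibronectin (Fn1) and the hyaluronan-binding proteoglycan versican (Vcan) build the provisional matrix on which the others assemble.

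Postn fell and Tnn and Vcan rose under the main test and all 16 alternatives tried, and the windows upstream of these 3 genes are shown for that reason. Each window holds the 250 bases before a RefSeq start site (GRCm38.p6), written 5′ to 3′ on the strand of the gene, with capitals marking the matches named afterwards. Postn and Tnc have 2 windows each in the table, and the Postn window shown is the one whose start site lies nearest to the start of the gene in the deposited table. It is chr3:54360857-54361106 on the plus strand, the Tnn window chr1:160153576-160153825 on the minus strand and the Vcan window chr13:89742513-89742762 on the minus strand.
Postn: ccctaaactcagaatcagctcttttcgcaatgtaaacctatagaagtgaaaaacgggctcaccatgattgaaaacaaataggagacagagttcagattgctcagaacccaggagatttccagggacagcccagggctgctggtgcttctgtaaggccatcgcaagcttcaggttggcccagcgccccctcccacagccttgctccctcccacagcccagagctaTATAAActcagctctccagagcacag
Tnn: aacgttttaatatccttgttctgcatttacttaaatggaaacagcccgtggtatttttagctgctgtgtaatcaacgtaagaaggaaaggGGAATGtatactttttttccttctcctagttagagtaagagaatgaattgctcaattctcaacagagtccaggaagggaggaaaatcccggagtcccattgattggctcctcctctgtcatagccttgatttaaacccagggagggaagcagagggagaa
Vcan: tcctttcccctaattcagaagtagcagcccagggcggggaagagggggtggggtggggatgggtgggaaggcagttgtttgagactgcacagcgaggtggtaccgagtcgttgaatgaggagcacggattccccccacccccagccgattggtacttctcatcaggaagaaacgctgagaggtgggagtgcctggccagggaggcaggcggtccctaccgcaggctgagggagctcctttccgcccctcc
The windows were searched for the TATA box sequence TATAAA on the strand of the gene. On both strands they were searched for the AP-1 sequence TGANTCA, the TEAD sequence GGAATG and the RUNX sequence TGTGGT, none of which overlaps another of the 4 in a printed match. The Postn window shown holds a TATAAA that begins 26 bases upstream of the start site, and 7.59% of the 32851 windows in the RefSeq table hold one. The other Postn window, chr3:54359017-54359266, holds none of the 4 motifs. The Tnn window holds a GGAATG beginning 160 bases upstream, a match found in 12.6% of all windows. The Vcan window holds none of the 4 motifs. Counted per gene over 10 windows, 2 of the 8 genes with a window held TATAAA (Postn and Tnc), 1 held GGAATG, and 0 held TGANTCA or TGTGGT, which 6.75% and 14.0% of all windows hold. These matches describe letters in a window and no binding was measured.

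Total estimated counts ran from 63174927 to 70955139 per library, and 1 read pair was taken as about 4 counts. Of 17375 genes tested with edgeR, 496 were higher and 253 lower in scaffold libraries at an adjusted p under 0.05, and with libraries scaled by their totals alone 429 were higher and 380 lower. Osteoblast markers were present (8 of 8 at 1 FPKM or more), and their summed level was 4425 to 4878 FPKM in control and 5428 to 5558 FPKM in scaffold libraries, with no overlap. Ibsp went from 1225 to 1328 FPKM in control to 1996 to 2234 FPKM in scaffold libraries (log2 fold change 0.78 ± 0.06, edgeR adjusted p = 0.000118). Dmp1 (2.12 ± 0.17), Bglap (1.92 ± 0.18), Alpl (0.57 ± 0.08) and Sp7 (0.24 ± 0.06) also passed in the higher direction (edgeR adjusted p = 0.000118, 0.000459, 0.00276 and 0.0370). Col1a1 (log2 fold change 0.03 ± 0.08) and Spp1 (0.09 ± 0.07) overlapped, and Runx2 stood at -0.17 ± 0.07. None of these 3 passed (edgeR adjusted p = 0.877, 0.562 and 0.179). Of 10 markers of periosteum and fibroblasts, 8 reached 1 FPKM, with sums of 448 to 471 and 449 to 475 FPKM. The 7 chondrocyte markers summed to 57.9 to 63.7 FPKM in control and 81.1 to 82.4 FPKM in scaffold libraries, while 4 of them, Acan, Col9a1, Matn1 and Col10a1, had means under 0.1 FPKM. Of the other 3, Col2a1 was higher (30.2 to 34.4 against 55.4 to 57.8 FPKM), and Sox9 (log2 fold change -0.13 ± 0.06, edgeR adjusted p = 0.325) and Comp (-0.26 ± 0.18, edgeR adjusted p = 0.508) did not pass. Of 6 osteoclast markers 5 were in the table, and 4 of these had means under 0.1 FPKM. The sums of 100.3 to 112 and 119 to 129 FPKM were nearly all Ctsk, at a mean of 115 FPKM. Ctsk also counts in the periosteum and fibroblast sums. Smooth muscle sums of 363 to 414 and 338 to 394 FPKM were nearly all Acta2 (mean 379 FPKM). Endothelial markers all had means under 0.1 FPKM (6 of 6). Platelet and megakaryocyte sums were 1.18 to 1.44 FPKM in control and 1.25 to 1.37 FPKM in scaffold libraries. Among these markers Itga2b had a mean of 1.01 FPKM and the platelet factor gene Pf4 one of 0.0338 FPKM. Macrophage sums were 7.61 to 11.2 FPKM in control and 8.78 to 10.4 FPKM in scaffold libraries, with Lyz2 at a mean of 8.69 FPKM. Sums reached at most 0.356 FPKM for erythroid, 0.382 FPKM for neutrophil and 0.362 FPKM for adipocyte markers. The table held 4 of 5 platelet and megakaryocyte, 4 of 5 erythroid, 3 of 5 adipocyte and 4 of 5 neutrophil markers. No marker in the table was at 0 in all libraries, but the same holds for all 28802 genes of the table. It therefore says nothing about the markers. In bulk RNA, fewer cells of a type and less RNA per cell cannot be told apart. The part of the higher Ibsp, Dmp1, Bglap, Alpl, Sp7 and Col2a1 levels in the results that follow was not tested.

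The 10 genes differed widely in level. In control libraries, in FPKM (fragments per kilobase of transcript, scaled to sequencing depth), Postn was highest at 2311 ± 83.4 (SD, n = 3, as for all group values). Sparc followed at 1451 ± 114 and Fn1 at 1318 ± 184. Their spreads overlapped across control libraries, but Sparc was above Fn1 within each of them. Tnc stood at 150 ± 22.8 FPKM. Thbs1 (69.8 ± 7.40) and Thbs2 (56.9 ± 5.06) came next, then Thbs3 (15.6 ± 0.526) and Tnn (14.3 ± 1.06), Vcan (4.76 ± 0.177) and Tgfbi (0.825 ± 0.0671). Over all libraries Postn ranked between place 21 and 25 of the table by FPKM, Sparc between 24 and 26 and Fn1 between 25 and 30. In the scaffold libraries Postn (1717 ± 64.6) and Sparc (1739 ± 42.3) lay within each other's spread, and Tnn (18.8 ± 1.58) stood above Thbs3 (12.4 ± 0.818), the reverse of their order in control. No test was made of these orders.

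**Figure D1:**
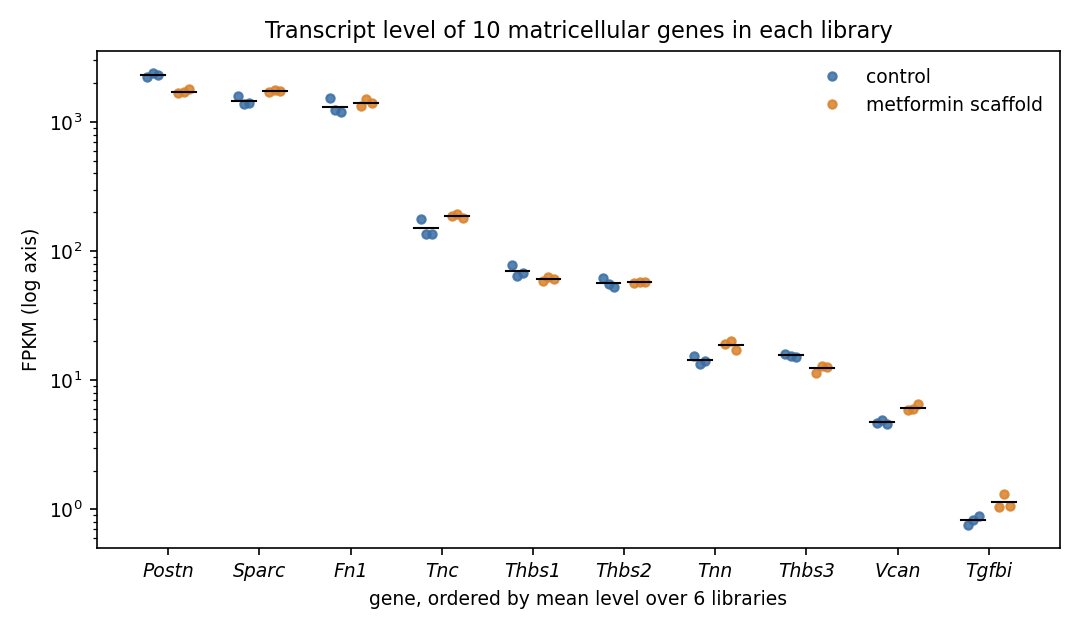
FPKM (log axis) of the 10 genes in each of 3 control and 3 metformin scaffold libraries, with points for libraries and black lines for group means. The Postn points of the scaffold group (1665 to 1789 FPKM) lie below all control points (2219 to 2382 FPKM), while those of Sparc, Tnc, Tnn, Vcan and Tgfbi lie above.

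With the metformin scaffold, 6 of the 10 genes passed the test. Vcan, Tnn, Tnc and Sparc rose between 1.23-fold (Sparc) and 1.35-fold (Tnn), and Postn and Thbs3 fell to 0.763 and 0.818 of their control level. Tgfbi, Fn1, Thbs1 and Thbs2 did not pass. Over all tested genes 4.31% passed, 2.85% in the higher and 1.46% in the lower direction. At a mean FPKM of at least 5, 567 of 6925 genes passed, among them 5 of the 9 matricellular genes tested there. The 10 genes were chosen with earlier results of these data known, so these shares are a description only. The median log2 fold change of the 10 genes was 0.22, against -0.0045 over all tested genes. Control and scaffold libraries were fully separated in CPM (library-size scaled counts) for 8 of the 10 genes, against 24% of all tested genes. The count of 6 fell to 3 without control replicate 2, control replicate 3 or scaffold replicate 3, and those 3 were Postn, Tnn and Vcan each time. Without control replicate 1 it was 6 (5 higher, 1 lower), and with no filter on low counts 3.

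Periostin fell, in every scaffold library. Postn (ENSMUSG00000027750, chromosome 3, 54361109 to 54391037, plus strand, GRCm38) stood at 2219, 2382 and 2333 FPKM in control replicates 1, 2 and 3, and at 1665, 1697 and 1789 FPKM in scaffold replicates 1, 2 and 3. All 3 scaffold libraries lay below all 3 control libraries. The log2 fold change was -0.39 ± 0.06 (SE; 95% interval -0.52 to -0.26; edgeR adjusted p = 0.00349), and the adjusted p stayed under the threshold in all 16 alternatives (highest 0.0341). Postn took 2.24% of all counts in control and 1.67% in scaffold libraries. Its share of the summed FPKM of the 10 genes was 39.0% to 45.1% in control and 31.8% to 34.0% in scaffold libraries. The sum itself was 5393 ± 255 FPKM in control and 5217 ± 151 FPKM in scaffold libraries, and the sum of the other 9 was 3081 ± 332 and 3500 ± 131 FPKM, with control replicate 1 (3464 FPKM) inside the scaffold range of 3382 to 3641 FPKM. Among the periosteum and fibroblast markers, the PDGF receptor gene Pdgfra, singled out after its values were seen, also fell (log2 fold change -0.36 ± 0.06, edgeR adjusted p = 0.00424). No other marker of that list passed (edgeR adjusted p from 0.0746 for Ctsk to 0.998 for Dpt). Of these, Scx (0.27 ± 0.16), Ctsk (0.23 ± 0.06), Lum (0.14 ± 0.06), Thy1 (0.05 ± 0.10), Pdgfrb (0.04 ± 0.07) and Prrx1 (0.02 ± 0.06) had positive estimates. Pi16 (-0.34 ± 0.57), Dcn (-0.12 ± 0.06) and Dpt (-0.0089 ± 0.66) had negative ones.

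Tgfbi, the other fasciclin-domain gene, had a log2 fold change of the opposite sign to Postn and the lowest level of the 10 genes. Tgfbi (ENSMUSG00000035493, chromosome 13, 56609523 to 56639562, plus strand) was at 0.755, 0.830 and 0.889 FPKM in control replicates 1, 2 and 3, and at 1.05, 1.31 and 1.07 FPKM in scaffold replicates 1, 2 and 3. The groups did not overlap, but each library held only 201 to 388 estimated counts. Under the assumption of 4 counts per read pair, that is about 50.3 to 97 read pairs. The log2 fold change of 0.51 ± 0.15 (95% interval 0.18 to 0.84) did not pass (edgeR adjusted p = 0.0910), nor did it in any alternative that tested it (adjusted p from 0.0719 to 0.273). The ratio of Postn to Tgfbi in FPKM went from 2811 ± 166 in control to 1517 ± 199 in scaffold libraries, a log2 difference of -0.90. The exact permutation test gave p = 0.1, two-sided, the smallest that 3 against 3 allows, and 0.15 when adjusted over the 3 ratios tested.

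Sparc rose while its level in control replicate 1 lay nearest to the scaffold group. Sparc (ENSMUSG00000018593, chromosome 11, 55394500 to 55423183, minus strand) stood at 1582, 1374 and 1397 FPKM in control replicates 1, 2 and 3, and at 1701, 1785 and 1731 FPKM in scaffold replicates 1, 2 and 3. The groups did not overlap, and the log2 fold change was 0.30 ± 0.06 (95% interval 0.17 to 0.44, edgeR adjusted p = 0.0182). The call was lost without control replicate 2 or 3 or scaffold replicate 2 or 3 (adjusted p from 0.0742 to 0.106), and over all 16 alternatives the adjusted p ran from 9.78e-07 to 0.137.

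Both tenascin genes rose. Tnn, tenascin N, known from periosteum and dense connective tissue (ENSMUSG00000026725, chromosome 1, 160085029 to 160153580, minus strand), was at 15.5, 13.5 and 14.0 FPKM in control replicates 1, 2 and 3, and at 19.0, 20.3 and 17.2 FPKM in scaffold replicates 1, 2 and 3. All scaffold libraries lay above all control libraries, with a log2 fold change of 0.43 ± 0.07 (95% interval 0.28 to 0.58, edgeR adjusted p = 0.00499), and the call held in all 16 alternatives (highest adjusted p 0.0428). Tnc, tenascin C, which appears at sites of repair and mechanical load (ENSMUSG00000028364), was at 176, 137 and 137 FPKM in control replicates 1, 2 and 3, and at 188, 195 and 180 FPKM in scaffold replicates 1, 2 and 3. Control replicate 1 lay close under the lowest scaffold library, well above the other controls. The log2 fold change of Tnc was 0.36 ± 0.09 (95% interval 0.17 to 0.56, edgeR adjusted p = 0.0434). This call held without control replicate 1 (adjusted p = 0.00138) but was lost without any other single library and in 10 of the 16 alternatives in all (adjusted p up to 0.164). The ratio of Tnn to Tnc was 0.0879, 0.0983 and 0.102 in control and 0.101, 0.104 and 0.0955 in scaffold replicates 1, 2 and 3 (log2 difference 0.058, exact permutation test p = 0.6, two-sided, adjusted p = 0.6), and its difference turned to -0.0052 without control replicate 1.

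Of the 3 thrombospondin genes, only Thbs3 passed the test, in the lower direction; the differences in response between the 3 genes were tested only for the pair Thbs1 and Thbs2. Thbs3, a pentameric thrombospondin known from cartilage and the growth plate (ENSMUSG00000028047, chromosome 3, 89215180 to 89226837, plus strand), was at 16.1, 15.5 and 15.1 FPKM in control replicates 1, 2 and 3, and at 11.5, 13.015 and 12.7 FPKM in scaffold replicates 1, 2 and 3. The groups did not overlap, and the log2 fold change was -0.29 ± 0.06 (95% interval -0.42 to -0.16, edgeR adjusted p = 0.0183). It did not pass without any 1 of the 3 control replicates or scaffold replicate 3 (adjusted p from 0.0507 to 0.0739), and over the 16 alternatives the adjusted p ran from 0.000568 to 0.0739. In GENCODE M21, Mtx1 on the opposite strand overlaps all 11658 bases of Thbs3, and it held 36.6% as many counts. The labels do not state whether counting used strand, and how many reads fall in exons of both genes was not measured. Mtx1 itself stood at 0.04 ± 0.07 on the log2 fold change scale (adjusted p = 0.850, edgeR).

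Thbs1, the thrombospondin of platelets and of stromal cells (ENSMUSG00000040152, chromosome 2, 118111876 to 118127133, plus strand), was at 78.1, 63.8 and 67.5 FPKM in control replicates 1, 2 and 3, and at 58.7, 62.6 and 61.1 FPKM in scaffold replicates 1, 2 and 3. The scaffold libraries lay below the controls with no overlap, yet the log2 fold change of -0.16 ± 0.07 (95% interval -0.32 to -0.0031) did not pass (edgeR adjusted p = 0.266). Thbs2, its closest relative (ENSMUSG00000023885, chromosome 17, 14665500 to 14694235, minus strand), was at 62.5, 55.4 and 52.8 FPKM in control replicates 1, 2 and 3, and at 56.8, 57.3 and 57.7 FPKM in scaffold replicates 1, 2 and 3. These groups overlapped, with a log2 fold change of 0.05 ± 0.06 (95% interval -0.092 to 0.19, edgeR adjusted p = 0.754). The ratio of Thbs1 to Thbs2 was 1.25, 1.15 and 1.28 in control and 1.03, 1.09 and 1.06 in scaffold replicates 1, 2 and 3. The log2 difference of -0.21 had an exact permutation p of 0.1, two-sided, the smallest possible, and 0.15 when adjusted over 3 ratios.

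Versican rose and fibronectin did not pass. Vcan (ENSMUSG00000021614, chromosome 13, 89655312 to 89742509, minus strand) was at 4.70, 4.96 and 4.62 FPKM in control replicates 1, 2 and 3, and at 5.92, 5.99 and 6.56 FPKM in scaffold replicates 1, 2 and 3. The groups did not overlap, and the log2 fold change was 0.41 ± 0.06 (95% interval 0.28 to 0.54, edgeR adjusted p = 0.00332), with the call held in all 16 alternatives (highest adjusted p 0.0262). The antisense gene Gm4117 overlaps 3050 bases of Vcan and held 5.10% as many counts. Fn1 (ENSMUSG00000026193) was at 1528, 1236 and 1189 FPKM in control replicates 1, 2 and 3, and at 1340, 1500 and 1408 FPKM in scaffold replicates 1, 2 and 3. Control replicate 1 was the highest of all 6 libraries, and the groups overlapped. The log2 fold change of Fn1 was 0.14 ± 0.09 (95% interval -0.044 to 0.33, edgeR adjusted p = 0.420), and it became 0.26 and passed without control replicate 1 (adjusted p = 0.0222), against adjusted p from 0.209 to 0.765 in the other alternatives.

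Control replicate 1 was the highest control library for 7 of the 10 genes (Sparc, Tnc, Tnn, Thbs1, Thbs2, Thbs3 and Fn1) and the lowest for Postn and Tgfbi. The part of this library in the spread of the other genes was not tested. By the root mean square difference of log2(FPKM + 1), each gene centred on its own mean over the 6 libraries, the most alike pairs were Sparc and Tnc (0.073), Tnc and Tnn (0.078), Thbs2 and Fn1 (0.078) and Sparc and Tnn (0.080). Postn lay nearest to Thbs3 (0.091).

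**Figure D2:**
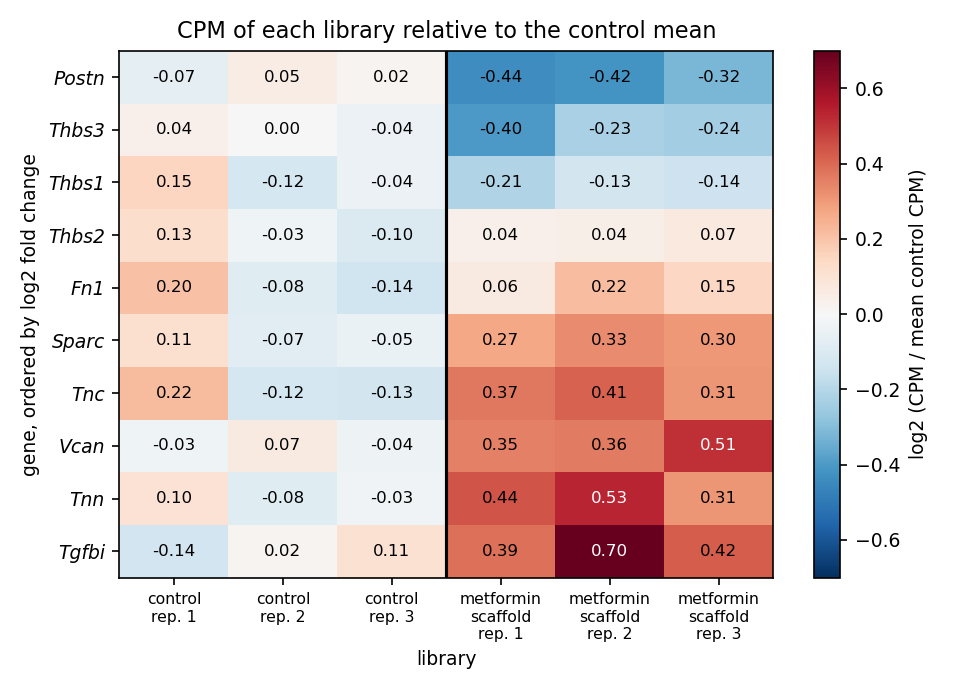
log2 of the CPM (counts scaled to library size with TMM) of each library over the mean of the 3 control libraries, with genes in rows and libraries in columns. Postn lies between -0.44 and -0.32 in the scaffold libraries, and control replicate 1 lies at 0.20 for Fn1 and 0.22 for Tnc.

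Outside the 10 genes, the transcripts whose pattern over the 6 libraries was most like that of Postn were, among 11825 compared, Emx2os, the IGF binding protein gene Igfbp6, the transporter gene Abca9, the chaperone gene Dnajb9 and Flrt2, with root mean square differences of 0.042 to 0.050. Igfbp6 went from 23.5 ± 0.714 to 16.4 ± 0.381 FPKM and Flrt2 from 5.86 ± 0.179 to 4.13 ± 0.0925 FPKM. For Tnc they were the collagen genes Col5a3 (0.031), Col5a1 (0.044) and Col15a1 (0.047), for Sparc Fads2, Syne2 and Lhfpl2 (0.021 to 0.025), and for Vcan Mastl, Il16 and Gm17308 (0.022 to 0.024). Among those for Thbs3 were Ganc (0.029) and Ccn1 (0.035), and for Tnn they were Gm5555, Kif18b and Gm6254 (0.044 to 0.056). Genes were ranked by this measure alone, which also reflects the group difference, and no test attaches to it.

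**Figure D3:**
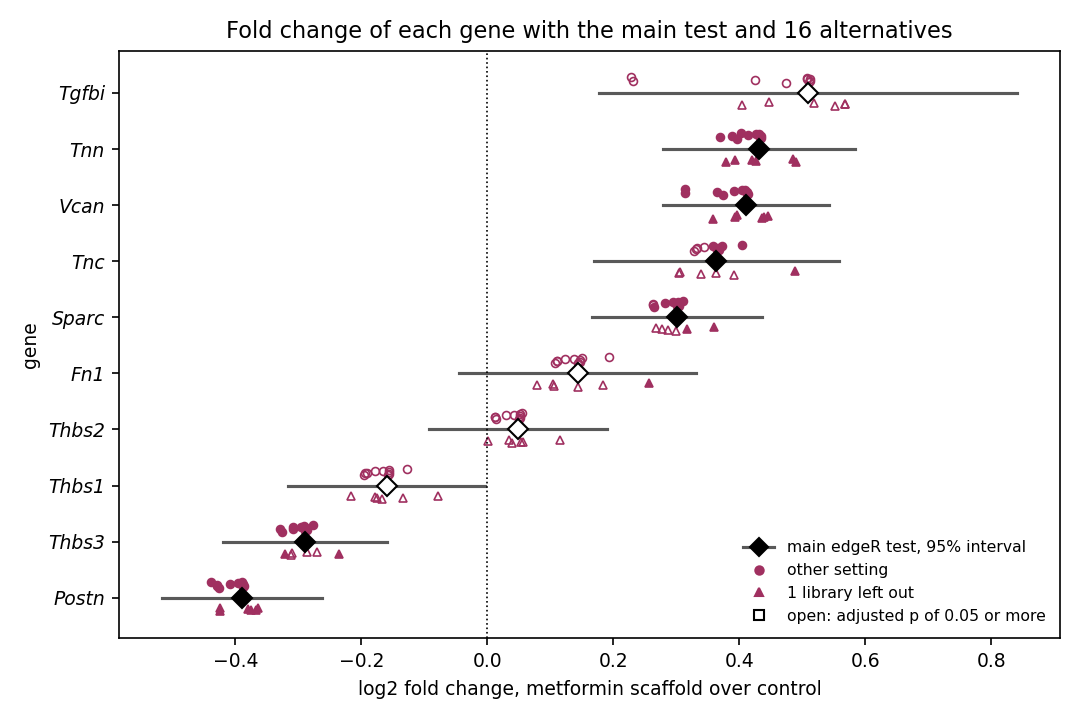
log2 fold change (metformin scaffold over control) of the 10 genes: diamonds are the main edgeR test with its 95% interval, circles the other settings and triangles the fits with 1 library left out, open where the adjusted p was 0.05 or more. Postn, Tnn and Vcan are filled throughout, Tnc is open in 10 of 16 alternatives, and Fn1 is filled only without control replicate 1.

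Relatives of the 10 genes moved in both directions. Of 19 tested, 1 rose and 3 fell (median log2 fold change -0.13), against 2.85% and 1.46% of all genes. Fstl1, a secreted relative of Sparc, was at 150, 151 and 145 FPKM in control replicates 1, 2 and 3, and at 109, 103 and 104 FPKM in scaffold replicates 1, 2 and 3. Its log2 fold change was -0.46 ± 0.05 (edgeR adjusted p = 0.00129), opposite in sign to Sparc, and kept its call in all 16 alternatives. Of the CCN family, matricellular proteins that bind integrins and growth factors, Ccn3 fell from 10.5 ± 1.16 to 6.60 ± 0.621 FPKM (log2 fold change -0.63 ± 0.09, edgeR adjusted p = 0.00376). Ccn1 fell from 82.8 ± 4.78 to 66.4 ± 2.27 FPKM (-0.28 ± 0.06, edgeR adjusted p = 0.0168), and Ccn4 rose from 8.59 ± 0.760 to 10.1 ± 0.0761 FPKM (0.27 ± 0.06, edgeR adjusted p = 0.0408). Ccn1 lost its call in 3 (without control replicate 2 or scaffold replicate 2 or 3) and Ccn4 in 10 of the 16 alternatives, among them, for Ccn4, the fits without control replicate 2 or 3 or any scaffold replicate. Ccn2, a TGF-beta and YAP target, stood at 0.36 ± 0.11 (edgeR adjusted p = 0.110). The osteopontin gene Spp1, another adhesive bone matrix protein, stood at 0.09 ± 0.07 (edgeR adjusted p = 0.562).

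Among matrix partners and assembly enzymes, 5 of 27 tested genes rose, 1 fell and the other 21 did not pass, against 2.85% higher and 1.46% lower over all tested genes, with a median log2 fold change of 0.12. Hapln1, the link protein that holds versican on hyaluronan, went from 1.77, 1.44 and 1.34 FPKM in control to 2.52, 2.66 and 2.69 FPKM in scaffold replicates 1, 2 and 3 (log2 fold change 0.83 ± 0.11, edgeR adjusted p = 0.00178). Has2, a hyaluronan synthase, went from 4.85, 4.58 and 4.54 FPKM to 6.35, 5.83 and 6.54 FPKM (0.46 ± 0.07, edgeR adjusted p = 0.00448). Both rose with Vcan in every scaffold library. The other synthase genes, Has1 and Has3, had group means under 1 FPKM and did not pass (edgeR adjusted p = 0.782 and 0.849). The elastin crosslinking enzyme gene Loxl1 rose from 4.08 ± 0.0481 to 6.39 ± 0.735 FPKM (0.69 ± 0.09, edgeR adjusted p = 0.00236), and Fbln5, an elastic fibre protein, fell from 19.8 ± 0.831 to 14.5 ± 0.390 FPKM (-0.41 ± 0.05, edgeR adjusted p = 0.00178). The secreted matrix protein gene Ccdc80 (0.36 ± 0.07, edgeR adjusted p = 0.0122) and Col5a2, a chain of type V collagen (0.24 ± 0.05, edgeR adjusted p = 0.0328), also rose. Ccdc80 lost its call without scaffold replicate 2 or 3, and Col5a2 in 9 alternatives, among them those without control replicate 2 or 3 or scaffold replicate 2 or 3. Bmp1, the protease that processes procollagen and that periostin binds, stood at 0.08 ± 0.07 (edgeR adjusted p = 0.597) and Lox at 0.13 ± 0.06 (edgeR adjusted p = 0.271). The count of risen genes in this list was 9 without control replicate 1 and 3 without scaffold replicate 2 or 3. The calls of Hapln1, Has2, Loxl1 and Fbln5 held in all alternatives that tested them.

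Of 29 tested receptor genes, 1 rose, 2 fell and the other 26 did not pass, against 2.85% higher and 1.46% lower over all tested genes, with a median log2 fold change of -0.03. The syndecan gene Sdc3, a heparan sulfate receptor, rose from 19.5 ± 1.44 to 24.1 ± 0.511 FPKM (0.34 ± 0.06, edgeR adjusted p = 0.00756). Egfr, the EGF receptor, fell from 5.18 ± 0.375 to 3.74 ± 0.279 FPKM (-0.43 ± 0.07, edgeR adjusted p = 0.00490), and Itga1, a collagen-binding integrin chain, from 2.19 ± 0.140 to 1.71 ± 0.0545 FPKM (-0.31 ± 0.07, edgeR adjusted p = 0.0222). Itga1 lost its call in 7 alternatives, without control replicate 2 or scaffold replicate 2 or 3 among them. The periostin receptor chains Itgav (-0.06 ± 0.07, edgeR adjusted p = 0.718), Itgb3 (0.24 ± 0.11, edgeR adjusted p = 0.277) and Itgb5 (-0.0081 ± 0.06, edgeR adjusted p = 0.961) did not pass, nor did the thrombospondin receptor gene Cd47 (-0.07 ± 0.05, edgeR adjusted p = 0.548).

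Of 18 tested protease genes, 0 rose and 1 fell (5.56%), near the 4.31% called over all tested genes: Mmp9, a gelatinase, went from 7.78 ± 0.650 to 6.15 ± 0.0786 FPKM (-0.30 ± 0.08, edgeR adjusted p = 0.0491). Mmp9 lost its call in 9 of the 16 alternatives, including every fit with 1 library left out, and DESeq2 called 2 genes of the list higher and 3 lower. Adamts1, which cuts versican, stood at -0.17 ± 0.06 (edgeR adjusted p = 0.121). In the TGF-beta list 1 of 22 genes rose and 1 fell, against 2.85% higher and 1.46% lower over all tested genes. The ligand gene Tgfb1, inducer of Tgfbi and periostin in many cells, rose from 12.03 ± 0.900 to 14.9 ± 1.32 FPKM (0.35 ± 0.07, edgeR adjusted p = 0.0238), and the receptor gene Tgfbr2 fell from 16.7 ± 0.959 to 13.8 ± 0.672 FPKM (-0.24 ± 0.06, edgeR adjusted p = 0.0409). Tgfb1 lost its call in 7 and Tgfbr2 in 10 alternatives, Tgfbr2 with any 1 library left out and Tgfb1 without control replicate 2 or 3 or scaffold replicate 2 or 3.

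**Figure D4:**
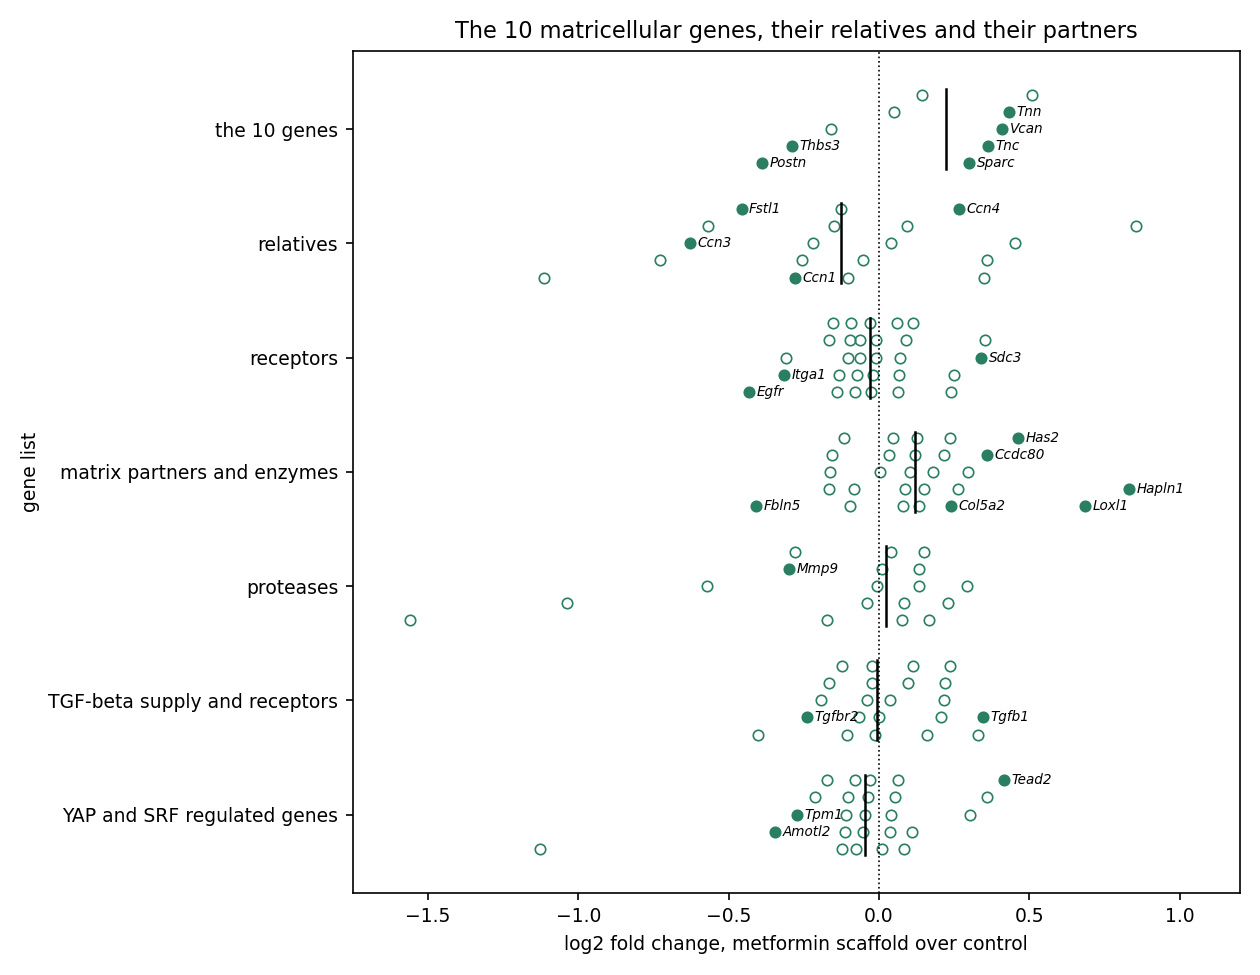
log2 fold change (metformin scaffold over control) of each tested gene in 7 lists, filled and named where the edgeR adjusted p was under 0.05, with black bars for list medians. Hapln1 (0.83), Loxl1 (0.69) and Has2 (0.46) lie at the high end of the matrix partners, and Ccn3 (-0.63) and Fstl1 (-0.46) are the lowest named relatives.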

How the data were processed

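Poly(A)-selected RNA was sequenced as paired reads of 150 bp, per the labels' protocols. The submitters' processing notes list HISAT2, StringTie, fastp, bcl2fastq 2.20, edgeR and DESeq2, with no roles, and no genome build was found there. The deposited table holds FPKM made by the authors (scaled to transcript length and depth) and estimated counts made by the authors, 1 column of each per library. In the deposited estimated counts, values of 4, 8 and 12 made up 31.8% to 33.6% of those from 1 to 12. Most values in that range were therefore not multiples of 4. Taking 1 read pair as about 4 counts is an assumption that this share does not establish. Matching to GENCODE M21 (GRCm38) succeeded for 99.7% of identifiers, 90.6% of them at the same start and end, and coordinates are printed for genes that match.

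Estimated counts were rounded and tested with edgeR 4.0.16 (R 4.3.3): filterByExpr (minimum count 10), TMM, quasi-likelihood test, two-sided, Benjamini-Hochberg adjustment over all 17375 tested genes, threshold 0.05. A standard error is the log2 fold change divided by the square root of F. Ratios were tested with an exact permutation test (scipy 1.17.1). Alternatives used DESeq2 1.42.0, limma 3.58.1 on log2(FPKM + 1) or + 0.1, other scalings and filters, the replicate number as a block, and each library left out. The tests were checked on simulated data, and the outcome is not reported here. Named are all 10 genes, up to 5 passing genes of each list with the smallest p, and the genes nearest in pattern; other genes were chosen after their values were seen, and 1 gene that the rule names is not reported here. The 10 genes and the lists were chosen with earlier results of these data known.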

Additional observations from a re-analysis of the deposited data

How the results depend on the processing

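Postn, Tnn and Vcan kept direction and call in all 16 alternatives, and Tgfbi, Thbs1 and Thbs2 passed in none of those that tested them. Tgfbi gave no value at a mean FPKM of at least 5. Of 17375 tested genes 749 passed. DESeq2 called 1310 (833 higher, 477 lower) of the 14276 genes to which it gave an adjusted p. Without a filter on low counts 432 of 28802 passed. Of the calls, 66.2% were higher with TMM, 53.0% with library totals, 56.9% and 56.7% with limma at pseudocounts of 1 and 0.1, 54.9% at a mean FPKM of at least 5 and 49.0% with sample weights. Leaving out 1 library gave 323 to 968 genes over the table (415 and 460 when control replicates 2 and 3 were dropped, 421 and 323 for scaffold replicates 2 and 3) and 3 to 6 of the 10 genes.

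Without a filter, 3 of the 10 genes passed: Sparc (0.30, adjusted p = 0.0563), Tnc (0.37, adjusted p = 0.136) and Thbs3 (-0.29, adjusted p = 0.0570) did not, where more genes were tested (28802). Tnc did not pass with library totals (0.33, adjusted p = 0.0655), at a mean FPKM of at least 5 (0.34, adjusted p = 0.0535), or with limma at pseudocounts of 1 (0.33, adjusted p = 0.126) and 0.1 (0.33, adjusted p = 0.127). Sparc did not pass with limma at either pseudocount (0.26 each, adjusted p = 0.132 and 0.137). The cause was not tested. With 1 library left out, log2 fold changes ran from 0.27 to 0.36 for Sparc, 0.30 to 0.49 for Tnc, -0.32 to -0.24 for Thbs3 and 0.078 to 0.26 for Fn1, which passed without control replicate 1. The difference of the Tnn to Tnc ratio ran from -0.0052 to 0.11.

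Replicate numbers in the 2 groups gave no sign of pairing: deviations from group means correlated at -0.0613, -0.0141 and 0.00353 for numbers 1, 2 and 3 over 11834 genes, and no library correlated best with the one of its own number. With the replicate number as a block, 651 genes and the same count of 6 of the 10 passed (4 higher, 2 lower). Tgfbi rests on 201 to 388 counts per library; with counts divided by 4 its adjusted p was 0.0852, against 0.0910.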

Other observations

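Genes of the cytoskeleton and matrix that YAP and SRF regulate were measured in the same fit. Of 25 tested, 1 rose and 2 fell, with a median log2 fold change of -0.04, against 2.85% and 1.46% of all genes. Amotl2, an angiomotin family gene, went from 27.3, 27.1 and 26.3 FPKM in control to 19.8, 21.4 and 20.5 FPKM in scaffold replicates 1, 2 and 3 (log2 fold change -0.35 ± 0.05, edgeR adjusted p = 0.00376), and its call held in all 16 alternatives. The tropomyosin gene Tpm1 fell from 167 ± 2.35 to 134 ± 1.17 FPKM (-0.27 ± 0.05, edgeR adjusted p = 0.0112), a call lost without control replicate 2 or 3 or scaffold replicate 2 or 3. Tead2, a transcription factor partner of YAP, rose from 2.85 ± 0.121 to 3.71 ± 0.441 FPKM (0.42 ± 0.09, edgeR adjusted p = 0.0316), a call lost in 9 of the 15 alternatives that tested it, among them every fit with 1 library left out except the one without scaffold replicate 1.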
